A study of Mus musculus with 23 samples.

Results

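Fetal mammary stem cells were compared with the mature luminal cells of the adult gland by RNA-seq of sorted mouse cells. The comparison holds 4 of the 23 libraries of a study of normal mammary populations and mammary tumours, chosen by their sample titles. The fetal group is 2 libraries titled fMaSC, from wild-type mammary tissue of C57BL6J embryos at embryonic day 18. The adult group is 2 libraries titled mature luminal cells, from wild-type mammary glands of adult C57BL6J mice, and no treatment is named for either group. About 2000 freshly sorted cells went into each library. Libraries of a group are described as biological replicates, but no label links one to an animal or litter or says whether glands were pooled. The p-values below therefore measure the spread between libraries, which may be technical. Age and cell type differ together between the groups and cannot be told apart, and the sources used here do not give the sort markers, the adults' age or their hormonal stage. Adult basal cells and luminal progenitors, with 2 libraries each, stand in the same table, and their levels are given without a test. Their libraries also enter the filter on low values and the shared estimate of spread behind every p-value.

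Fetal mammary stem cells are cells of the late embryonic mammary rudiment that can rebuild a gland after transplantation, and they are known for carrying basal and luminal genes side by side. Mature luminal cells line the ducts of the adult gland. They carry the receptors for estrogen, progesterone and prolactin, rarely divide, and pass hormone signals to their neighbours through secreted factors. All levels are RPKM, read counts scaled to gene length and to the reads mapped in the library. A change is the difference of log2(RPKM + 1), fMaSC minus mature luminal, so a positive value is higher in the fetal cells and changes of genes near 0 are understated. A gene was called with a limma Benjamini-Hochberg adjusted p under 0.05.

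Most defining markers lay with their labels. Esr1, the estrogen receptor, was 0.0886 and 0.104 RPKM in fMaSC and 20.7 and 14.6 RPKM in mature luminal cells, and Prlr, the prolactin receptor, 50.3 and 49.5 RPKM in fMaSC and 4013 and 4291 RPKM in mature luminal cells. Sox10, a transcription factor of the fetal mammary stem cell state, was 24.2 and 26.2 RPKM in fMaSC and 0.0801 and 0.324 RPKM in mature luminal cells. Krt5 and Krt14, keratins of the basal layer, stood at 5.08 and 5.69 and at 107 and 112 RPKM in fMaSC, well below adult basal cells, which had 65.9 and 30.0 and 1213 and 532 RPKM. The fMaSC libraries also held the luminal keratins Krt8 and Krt18 in abundance. Sox9, a factor also linked to the fetal state, and the luminal factor Gata3 went the other way, at 57.5 and 67.3 against 509.7 and 542 RPKM and 49.1 and 53.7 against 26 and 23.7 RPKM.

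Of 24391 genes in the table, 12553 reached 1 RPKM in at least 2 of the 8 normal libraries and were tested. Of these, 5231 (41.7%) were higher and 1849 (14.7%) were lower in fMaSC. The split depended on the scaling. The median gene was 0.53 higher in fMaSC as deposited, and after quantile normalization, which gives every library the same distribution and moves that median to 0.00, 3346 genes (26.7%) were higher and 3246 (25.9%) were lower. Both scalings called 3331 genes higher and 1844 lower, and no gene changed from higher to lower. The shares over all genes are the background for the list counts below. A gene that passes the filter only through fMaSC can be called higher but not lower, and the reverse holds for mature luminal cells. Leaving out fMaSC library 1 left 1186 genes lower, and leaving out fMaSC library 2 left 1227. Large differences ran both ways: 116 called genes were higher by at least 5 and 68 lower by at least 5 on the log2 scale. Among the called genes, 313 of the higher ones were listed at 0 in both mature luminal libraries, and 113 of the lower ones were listed at 0 in both fMaSC libraries.

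**Figure D1:**
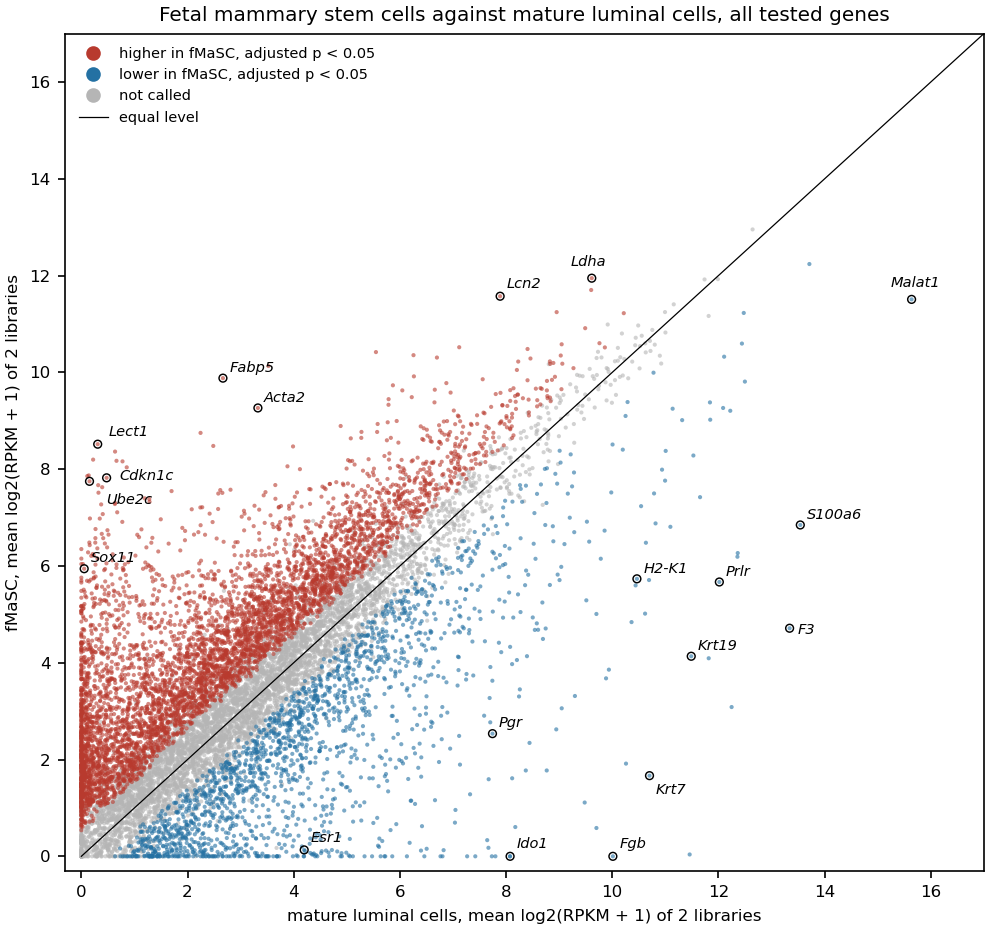
Mean log2(RPKM + 1) of the 2 mature luminal libraries (x axis) and of the 2 fMaSC libraries (y axis) for the 12553 tested genes, coloured by limma call, with the line of equal level. The 5231 genes higher in fMaSC lie above the line, and the 1849 lower genes include Malat1, F3 and S100a6 at the far right and Fgb and Ido1 on the zero line.

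The libraries differed in makeup. Malat1, a nuclear RNA, took 0.563% and 0.460% of the summed RPKM in fMaSC and 6.35% and 11.5% in mature luminal cells. The nuclear RNA Neat1 was 306 and 316 against 2154 and 4057 RPKM. The 50 most abundant genes took 18.2% and 17.5% in fMaSC and 36.0% and 40.4% in mature luminal cells, and 11320 and 11349 against 10056 and 10175 genes reached 1 RPKM. The part of these differences in the results was not tested. The fMaSC pair agreed more closely than any other pair: over genes of at least 10 RPKM in both libraries, the SD of the log2 difference was 0.192, against 0.367 in mature luminal cells, 0.377 in luminal progenitors and 0.658 in basal cells. Counting error cannot be computed from RPKM, so whether the fMaSC pair is closer than separate animals would be was not tested.

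Genes of cell division were higher in fMaSC almost throughout. Of 25 mitosis genes, 24 were higher in fMaSC and none was lower (24 and 1 after quantile normalization), with a median of 4.82 against 0.53 over all tested genes. Summed, the list came to 1449.6 and 1434 RPKM in fMaSC and 28.8 and 33 in mature luminal cells. In a bulk library a larger share of dividing cells and more of these RNAs per cell cannot be told apart. Ube2c, which passes ubiquitin to targets of the anaphase-promoting complex, was 219.7 and 209 RPKM in fMaSC and 0.149 and 0.0772 RPKM in mature luminal cells (7.60 ± 0.27 (SE), adjusted p = 7.2e-06 by limma). The mitotic cyclin Ccnb2 was 130.2 and 121 RPKM in fMaSC and 0.138 and 0.0996 RPKM in mature luminal cells (6.82). Its kinase Cdk1 was 106 and 106 RPKM in fMaSC and 0.744 and 0.134 RPKM in mature luminal cells (6.25), and Aurkb, the kinase of the chromosomal passenger complex, was 97.2 and 91.6 RPKM in fMaSC and 0.512 and 0.171 RPKM in mature luminal cells (6.16). For all 4 genes both mature luminal values were below 1 RPKM. The exception on the list was Anln, a cytoskeletal scaffold of the cleavage furrow that also has roles at cell junctions, at 6.61 and 8.4 against 10.1 and 14.1 RPKM (-0.62, adjusted p = 0.0875 by limma, and -1.21 after quantile normalization, where it was called lower).

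Mitosis genes are known to carry 2 kinds of short element near their starts, the CCAAT box and the cell cycle homology region (CHR, TTTGAA or TTCGAA), and the RefSeq promoter table (GRCm38.p6) held windows for 21 of the 25 genes. The windows run from 250 bases before to 50 bases after the start, and each motif was searched on both strands. CCAAT was in 19 of 22 windows (86.4%), the CHR in 18 (81.8%) and both in 17 (77.3%). Among all 32851 windows of the table the shares were 37.4%, 19.2% and 7.52%. Of the 26 CHR matches, 20 began within 100 bases of the start. Windows of the DNA replication genes held CCAAT in 52%, the CHR in 20% and both in 16%. The palindromic estrogen response element was in no mitosis window and in 23 of all windows (0.07%). Printed here, up to 20 bases after the start, are the 4 genes with the largest differences among those with 1 window that holds both motifs. Capitals mark CCAAT or its reverse complement ATTGG and the CHR or its reverse complement.
Ube2c: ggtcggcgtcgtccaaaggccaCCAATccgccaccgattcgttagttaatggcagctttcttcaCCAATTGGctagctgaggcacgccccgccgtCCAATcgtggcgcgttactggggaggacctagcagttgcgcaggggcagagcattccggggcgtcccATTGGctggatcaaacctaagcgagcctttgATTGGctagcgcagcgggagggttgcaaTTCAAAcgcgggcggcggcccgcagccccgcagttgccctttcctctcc
Ccnb2: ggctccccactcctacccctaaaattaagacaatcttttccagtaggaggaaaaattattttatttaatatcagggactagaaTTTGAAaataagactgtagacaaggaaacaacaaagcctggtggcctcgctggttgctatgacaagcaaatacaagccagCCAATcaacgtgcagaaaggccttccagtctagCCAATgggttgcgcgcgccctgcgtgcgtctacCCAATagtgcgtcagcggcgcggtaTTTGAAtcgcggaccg
Cdk1: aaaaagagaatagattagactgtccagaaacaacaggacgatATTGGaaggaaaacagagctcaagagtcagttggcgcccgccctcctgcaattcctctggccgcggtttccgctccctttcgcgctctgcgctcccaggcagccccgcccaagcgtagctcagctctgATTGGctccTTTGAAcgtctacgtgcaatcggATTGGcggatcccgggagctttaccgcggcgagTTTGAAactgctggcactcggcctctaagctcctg
Cdc20: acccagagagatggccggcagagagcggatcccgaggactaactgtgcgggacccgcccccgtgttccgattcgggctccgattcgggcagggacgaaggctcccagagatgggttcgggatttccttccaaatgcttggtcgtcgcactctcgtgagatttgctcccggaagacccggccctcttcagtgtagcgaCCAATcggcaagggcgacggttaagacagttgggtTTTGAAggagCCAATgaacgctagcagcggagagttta
These windows are chr2:164769679-164769948, plus strand, for Ube2c; chr9:70421535-70421804, minus strand, for Ccnb2; chr10:69352893-69353162, minus strand, for Cdk1; and chr4:118437324-118437593, minus strand, for Cdc20. CCAAT was found 6 times in Ube2c, of which 2 share bases within CCAATTGG, 3 times each in Ccnb2 and Cdk1 and 2 times in Cdc20. The CHR nearest the start began 29 bases before it in Ube2c, 15 before in Cdk1 and 18 before in Cdc20, and 4 bases after the start base in Ccnb2. Cdc20, the activator of the anaphase-promoting complex, was 86.1 and 88.6 RPKM in fMaSC and 0.199 and 0.54 RPKM in mature luminal cells (6.02). A match describes the letters and is not evidence of binding.

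**Figure D2:**
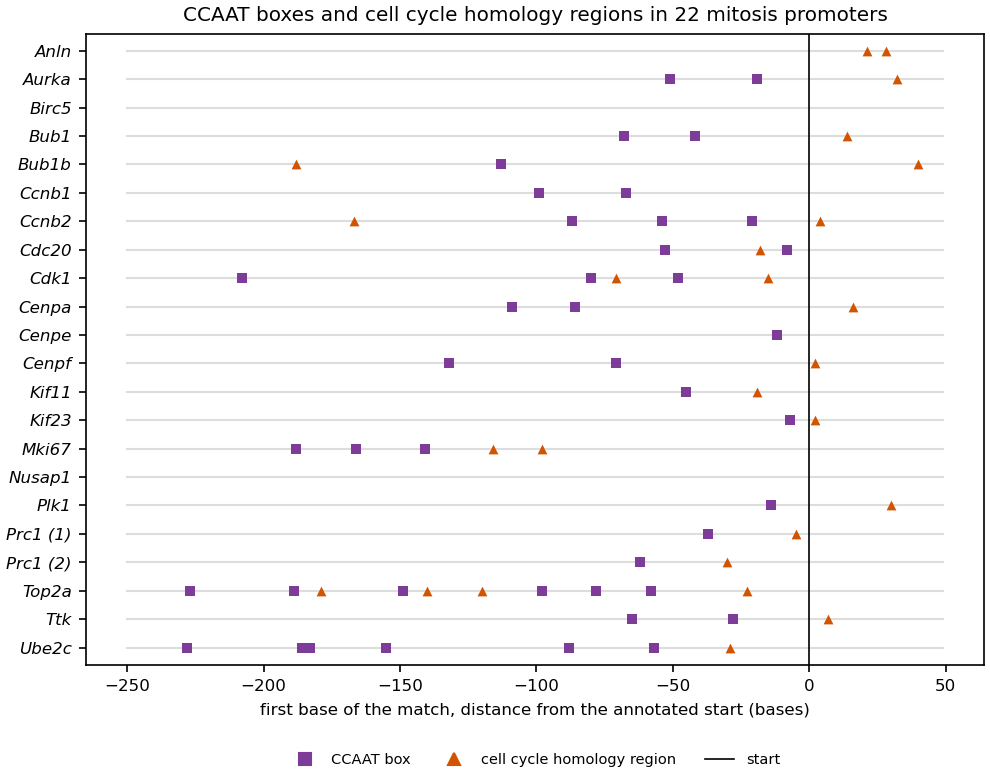
Position of each CCAAT box (squares) and cell cycle homology region (triangles) in the 22 windows of 21 mitosis genes, as distance in bases from the annotated start (vertical line). Both motifs occur in 17 windows, the windows of Birc5 and Nusap1 hold neither, and the 2 windows of Prc1 overlap.

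The DNA replication list went the same way without exception. All 26 members were higher in fMaSC, also after quantile normalization, with a median of 3.72. Tk1, the thymidine kinase of S phase, was 51.6 and 50.0 RPKM in fMaSC and 0.11 and 0.0456 RPKM in mature luminal cells (5.59 ± 0.20 (SE), adjusted p = 7.4e-06 by limma). Mcm5, a subunit of the replicative helicase, was 62 and 60.6 RPKM in fMaSC and 0.791 and 0.395 RPKM in mature luminal cells (5.30), and the G1/S cyclin Ccne1 was 37.2 and 41.1 RPKM in fMaSC and 0.145 and 0.169 RPKM in mature luminal cells (5.11). Pole, the catalytic subunit of DNA polymerase epsilon, was listed at 49 and 52.9 RPKM in fMaSC and at 0 in both mature luminal libraries. Among 61 tested histone genes 38 were higher and 9 lower (28 and 12 after quantile normalization, and 4 lower without either fMaSC library and 5 without mature luminal library 2). The higher ones included the linker histone Hist1h1b at 33.5 and 25.4 against 0.588 and 0.675 RPKM, and the lower ones the replacement histone H3f3b at 2407 and 2394 against 6393 and 5096 RPKM (-1.25, but -0.29 and not called after quantile normalization). Histone genes share near-identical copies, so the values of single members are uncertain.

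Cyclins and inhibitors of the cell cycle were less uniform. Of 18 tested members 10 were higher and 2 lower (7 and 4 after quantile normalization), against 41.7% and 14.7% of all genes. Cdkn1c, the imprinted inhibitor p57, was among the largest differences of all genes at 206 and 247 RPKM in fMaSC and 0.292 and 0.498 RPKM in mature luminal cells (7.35 ± 0.24 (SE), adjusted p = 7.2e-06 by limma). The D-type cyclins Ccnd2 and Ccnd1 were 183 and 180.4 against 0.208 and 0.295 RPKM and 158 and 143 against 14.7 and 10.7 RPKM. An inhibitor of cyclin-dependent kinases and 2 cyclins were therefore high in the same fetal libraries. Btg1 and Ccng2, both known to restrain proliferation, were lower in fMaSC, at 193 and 222 against 483 and 514 RPKM and 12.3 and 16.6 against 34.1 and 38.8 RPKM.

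Imprinted genes of fetal growth were higher in fMaSC as a group. Of 17 tested members 15 were higher and 1 lower (14 and 1 after quantile normalization), with a median of 2.50. The non-coding RNA H19 was 129 and 121 RPKM in fMaSC and 0.413 and 0.144 RPKM in mature luminal cells (6.63 ± 0.36 (SE), adjusted p = 1.6e-05 by limma). Mest, a hydrolase expressed from the paternal allele, was 156 and 158 against 0.545 and 0.559 RPKM (6.67). Ndn, a growth suppressor of the Prader-Willi region, was 25.2 and 23.7 against 0 and 0.0794 RPKM (4.62). Adult basal cells and luminal progenitors were also below 4 RPKM for H19, Mest and Ndn. Igf2, which lies beside H19 and is best known as the fetal growth factor, was called but low, at 2.01 and 2.05 against 0.017 and 0.0593 RPKM. The exception was the transporter gene Slc22a18 at 1.14 and 1.18 against 10.3 and 6.68 RPKM (-2.11). The libraries do not mark strand, so reads of overlapping genes on opposite strands cannot be told apart.

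Oncofetal and chromatin genes were mostly higher in fMaSC, with 2 enzyme families divided by paralog. Of 20 tested members 13 were higher and 3 lower (11 and 4 after quantile normalization, and 1 lower without fMaSC library 1). Among all genes 41.7% were higher and 14.7% lower. The RNA-binding protein Igf2bp3, which binds Igf2 mRNA, was 17.7 and 16.9 against 0.428 and 0.275 RPKM (3.76), and the architectural factor Hmga2 was 9.85 and 10.1 against 0.353 and 0.841 RPKM (2.80). Hells, a chromatin remodeller, and Uhrf1, a cofactor of maintenance DNA methylation, were 28.5 and 23.8 against 0.0963 and 0.161 RPKM and 16.7 and 17.9 against 0.193 and 0.423 RPKM. The polycomb methyltransferases moved apart: Ezh2 was 37.7 and 39.8 against 6.66 and 8.32 RPKM (2.23), and its paralog Ezh1 was 2.59 and 3.73 against 20.4 and 20.2 RPKM (-2.37). Likewise Tet1 was 2.12 and 1.94 against 0.0261 and 0.0177 RPKM, and Tet2 was 3.46 and 4.73 against 12.3 and 12.9 RPKM; both encode enzymes that oxidise methylcytosine. Lin28a and Lin28b, RNA-binding proteins of early development, were listed at 0 in all 8 normal libraries.

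Hormone receptors and their cofactors were divided, with the receptors for estrogen, progesterone and prolactin all lower in fMaSC. Of 18 tested members 9 were lower and 6 higher (11 and 5 after quantile normalization), with a median of -0.72. Esr1 differed by -4.07 ± 0.33 (SE), adjusted p = 6.8e-05 (limma). Pgr, the progesterone receptor, was 5.86 and 3.9 RPKM in fMaSC and 172 and 264 RPKM in mature luminal cells (-5.21), and Prlr differed by -6.35. Cited1, a cofactor of the estrogen receptor, was 5.41 and 4.92 against 618 and 392 RPKM (-6.32), and Greb1, an estrogen-induced cofactor, was 0.188 and 0.0635 against 10.5 and 15.3 RPKM (-3.60). Foxa1, the pioneer factor that opens chromatin for the estrogen receptor, was 7.04 and 8.05 against 54.1 and 60.3 RPKM (-2.77). Esr1 and Greb1 were below 0.2 RPKM in both fMaSC libraries.

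The members that were higher in fMaSC are transcription factors and a receptor of broader use. Gata3, the luminal lineage factor, was 49.1 and 53.7 RPKM in fMaSC and 26 and 23.7 RPKM in mature luminal cells (1.02, adjusted p = 0.0029 by limma, and 0.49, adjusted p = 0.0432, after quantile normalization). Tfap2c, an AP-2 factor of early mammary epithelium, was 52.9 and 57.5 against 1.48 and 2.08 RPKM (4.34). Ghr, the growth hormone receptor, was 86.3 and 104 against 28 and 33.2 RPKM (1.61, and 1.07, adjusted p = 0.0774 by limma, after quantile normalization, which is no call). Gata3 was therefore abundant in fMaSC libraries in which Esr1 and Greb1 were near 0. Myb, a transcription factor of luminal cells, was not called, at 14.1 and 19 against 12.4 and 14.1 RPKM, and Tbx3, a T-box factor of mammary induction, was not called as deposited, at 8.08 and 8.41 against 15.1 and 13.2 RPKM, but was called lower after quantile normalization (-1.30).

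Genes listed as signals that hormone-sensing cells pass on were divided. Id4, a transcriptional regulator that is not secreted, is on the list and among the higher genes. In fMaSC 6 of the 11 tested genes were lower and 5 higher (6 and 4 after quantile normalization), against 14.7% and 41.7% of all genes. Areg, the EGF receptor ligand induced by estrogen, was 51.8 and 50.9 RPKM in fMaSC and 1940.2 and 1414 RPKM in mature luminal cells (-4.99 ± 0.42 (SE), adjusted p = 8.1e-05 by limma). Wnt4, the progesterone-induced Wnt, was 1.11 and 0.959 against 17 and 13.3 RPKM (-2.98), and the angiogenic factor Vegfa was 10.2 and 10.9 against 110.4 and 165 RPKM (-3.56). The chemokine Cxcl15 was 0 and 0.179 against 92.8 and 74.8 RPKM (-6.28). On the other side, the metalloprotease Adamts18, an estrogen-responsive matrix protease, was 36.4 and 33.3 RPKM in fMaSC and listed at 0 in both mature luminal libraries. Penk, the enkephalin precursor, and Stc1, a secreted glycoprotein, were 12.1 and 16 against 0.652 and 0.328 RPKM and 32.9 and 25.7 against 0.758 and 2.57 RPKM. Tnfsf11, the RANK ligand that progesterone induces, was below the filter, with 0.143 and 0.239 against 0.465 and 0.328 RPKM, while its receptor Tnfrsf11a was 17.7 and 15.4 against 0.515 and 0.916 RPKM (3.36).

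Marker genes of the differentiated duct, chosen as surface and secreted markers, were lower in fMaSC almost throughout. The list also holds Krt7 and Krt19, filament proteins that are counted again among the keratins. Of 19 tested members 16 were lower and none higher (16 and 0 after quantile normalization), with a median of -3.86. Fxyd2, a regulator of the sodium pump, was 1.25 and 0 RPKM in fMaSC and 679 and 1022 RPKM in mature luminal cells (-9.12 ± 0.51 (SE), adjusted p = 1.8e-05 by limma). Ly6a, the surface antigen Sca-1 that is used to sort luminal cells, was 18.4 and 14 against 3827 and 3407 RPKM (-7.72), and the calcium-binding protein S100a6 was 121 and 108 against 9629 and 14812 RPKM (-6.70). The 3 tested members that were not called as deposited were the claudins Cldn3 and Cldn7, junction proteins of many epithelia, and the mucin Muc1. They stood at 302 and 270.2 against 625 and 317 RPKM, 173 and 185 against 299.7 and 237 RPKM and 2.65 and 2.52 against 2.29 and 3.76 RPKM, and Muc1 was called lower after quantile normalization (-0.74).

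Keratins are the filament proteins that mark epithelial layers. Of 18 tested keratins 9 were lower and 4 higher in fMaSC (9 and 4 after quantile normalization). The simple-epithelial pair Krt8 and Krt18 was lower but abundant, at 659.6 and 672 against 4379 and 3076 RPKM (-2.46) and 606 and 576 against 6084 and 3764 RPKM (-3.02). Krt19, the keratin of ductal luminal cells, was 16.2 and 16.9 against 3126 and 2642 RPKM (-7.36), and Krt7, another ductal keratin, was 1.58 and 2.91 against 1998 and 1390.0 RPKM (-9.04). Krt4 and Krt6a, keratins of stratified and stressed epithelia, were 2.54 and 3.02 against 1493 and 1006 RPKM and 2.52 and 2.33 against 428 and 441 RPKM. The fetal libraries thus held both Krt8 and Krt18 but under 20 RPKM of Krt19 and under 4 of Krt7, Krt4 and Krt6a. The 4 keratins that were higher, Krt5, Krt14, Krt17 and Krt23, differed by 2.56, 4.88, 5.08 and 5.48. Of these, Krt17 was 42.2 and 36.7 RPKM in fMaSC and 0.203 and 0.188 RPKM in mature luminal cells and reached 873 and 425 RPKM in adult basal cells.

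**Figure D3:**
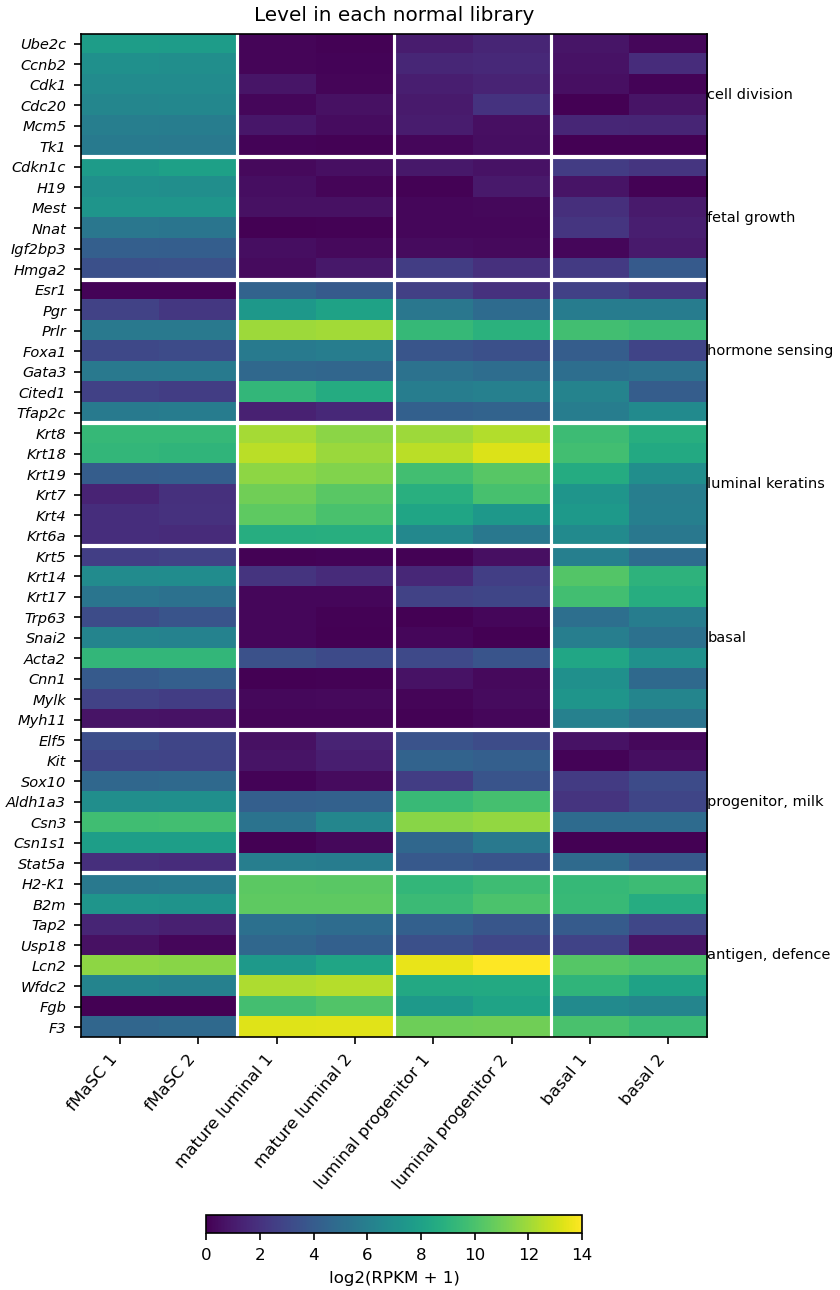
Level as log2(RPKM + 1) of 49 genes in each of the 8 normal libraries, with genes in rows by group and libraries in columns. The fMaSC columns are brighter than the mature luminal columns for Ube2c, H19 and Acta2 and darker for Esr1, Krt7 and Fgb. Esr1 stays in the lower part of the scale in both groups, while Krt8 and Krt18 are bright in both.

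Claudins, the strand proteins of tight junctions, differed by member. Of 12 tested claudins 4 were higher and 2 lower (3 and 2 after quantile normalization), against 41.7% and 14.7% of all genes. Cldn6, a claudin of embryonic epithelia, was 169.7 and 164 RPKM in fMaSC and 17.5 and 7.6 RPKM in mature luminal cells (3.73 ± 0.43 (SE), adjusted p = 3.6e-04 by limma), and Cldn9 was 6.16 and 7.1 RPKM in fMaSC and listed at 0 in both mature luminal libraries. Cldn4 was 115 and 118 against 2209 and 1472 RPKM (-3.94), and Cldn10 was 2.6 and 2.84 against 151 and 128 RPKM (-5.24). Of 21 other adhesion and polarity genes 9 were lower and 4 higher (11 and 1 after quantile normalization). Without either fMaSC library 1 was higher, without either mature luminal library 2 were, and without fMaSC library 1 only 5 were lower. Cdh1, which encodes E-cadherin, was 35.7 and 39.3 against 211 and 298 RPKM (-2.71), and the adhesion protein Epcam was 1294 and 1271 against 4517 and 4320.1 RPKM (-1.78). The grainyhead factors, which control epithelial junction genes, differed by paralog: Grhl1 was 0.834 and 0.934 against 15.1 and 14.6 RPKM (-3.07), and Grhl3 was 16.6 and 16 against 1.61 and 1.76 RPKM (2.69).

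The largest falls included genes of clotting, of mucosal defence and of lipid and tryptophan metabolism. Among the 15 largest falls that are not predicted genes, Fgb, the beta chain of fibrinogen, stood at 912 and 1169 RPKM in mature luminal cells and was listed at 0 in fMaSC. Its partner chain Fgg was 26.7 and 28.7 against 1290.5 and 1346 RPKM (-5.52), and Fga, the alpha chain, was at or near 0 in all 4 libraries (0 and 0 against 0 and 0.105 RPKM). F3, the tissue factor that starts coagulation, was 23.9 and 26.6 RPKM in fMaSC and 10151 and 10626 RPKM in mature luminal cells (-8.63 ± 0.21 (SE), adjusted p = 4.6e-06 by limma), or 411 times higher in the mature cells by mean RPKM. Lgals3, the lectin galectin-3, was 5.58 and 9.94 against 5027 and 4719 RPKM (-9.16), and Alox15, a lipoxygenase, was 0.154 and 0.106 against 254 and 162 RPKM (-7.49). Ido1, the tryptophan-degrading enzyme, and Dmbt1, a mucosal glycoprotein, stood at 285 and 254 and 284 and 254 RPKM in mature luminal cells and were listed at 0 in fMaSC. Defb1, a beta-defensin, was listed at 0 in fMaSC, and the mature luminal libraries were far apart, with 806 and 60.6 RPKM. Rpl37rt was 0.349 and 0.715 against 256 and 324 RPKM, but it is a near-copy of the ribosomal gene Rpl37 (591 and 489.5 against 350.2 and 435 RPKM), so its value is uncertain. In adult luminal progenitors the 15 genes had a median of 18.8% of their mature luminal level and in basal cells 10.9%. The median of 0.132% in fMaSC follows from how the genes were chosen and cannot be set against these values.

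Lect1, the cartilage glycoprotein chondromodulin, led the 15 largest rises at 367 and 364 RPKM in fMaSC and 0.533 and 0 RPKM in mature luminal cells (8.21 ± 0.46 (SE), adjusted p = 1.9e-05 by limma). Igfbp2, an IGF-binding protein, was 296 and 289.5 against 0.175 and 0.158 RPKM (7.98), and Emid1, an extracellular EMI-domain protein, was 232 and 230.2 against 0.0743 and 0.0867 RPKM (7.75). Gpc3, a glypican of fetal growth control, was 190.0 and 204 against 0.393 and 0.237 RPKM (7.24), and Cytl1, a secreted protein also found in cartilage, was 289 and 282 against 0.14 and 1.57 RPKM (7.39). Fabp5, a fatty acid carrier, was the most abundant of the 15 at 1014 and 877 against 3.85 and 7.32 RPKM (7.21). The remaining members included Pdpn, the mucin-like protein podoplanin (7.51), Ppic, a cyclophilin (7.73), Moxd1, a monooxygenase-like protein (7.35), Dpysl2, a microtubule-binding protein of axon growth (7.18), and Nrep (6.90). The mature luminal level of the 15 genes had a median of 0.160% of the fMaSC level, which follows from how they were chosen. In luminal progenitors the median was 0.534%, with 11 of the 15 under 1%, and in basal cells it was 3.79%. Pdpn and Moxd1 were also abundant in adult basal cells, at 401 and 423 and 158 and 281 RPKM, while Lect1 and Cytl1 were below 1 RPKM there.

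Genes of luminal progenitors and of milk secretion did not move together. Of 19 tested members 10 were higher and 5 lower in fMaSC (10 and 6 after quantile normalization), against 41.7% and 14.7% of all genes. Csn1s1, which encodes alpha-S1 casein, was 233 and 233 RPKM in fMaSC and 0 and 0.213 RPKM in mature luminal cells (7.73 ± 0.34 (SE), adjusted p = 8.4e-06 by limma). Csn3, the kappa casein, was 846 and 856 against 39.3 and 83.8 RPKM (3.87) and higher still in luminal progenitors, at 2966 and 3388 RPKM. Wap, the whey acidic protein, was listed at 0 in all 8 libraries. Elf5 and Kit, a transcription factor and a receptor of luminal progenitors, were 8.87 and 6.68 against 0.569 and 1.66 RPKM (2.09) and 6.54 and 6.21 against 0.678 and 1.29 RPKM (1.91). Stat5a, the mediator of prolactin signalling, was 2.71 and 2.42 against 62.6 and 57.1 RPKM (-4.09). Cd14 and Ltf, which encode an endotoxin co-receptor and lactoferrin, were lower in fMaSC, at 3.32 and 2.4 against 34.2 and 31 RPKM and 0.426 and 0.178 against 8.77 and 11.1 RPKM, and highest in luminal progenitors, at 299 and 307 and 47 and 43.2 RPKM.

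Most basal and myoepithelial genes were higher in fMaSC. Of 22 tested members 16 were higher and none lower (16 and 0 after quantile normalization), with a median of 3.26. Acta2, the smooth muscle actin of myoepithelium, was 621 and 608 RPKM in fMaSC and 10.3 and 7.91 RPKM in mature luminal cells (5.94 ± 0.38 (SE), adjusted p = 2.8e-05 by limma), above adult basal cells at 306 and 135 RPKM. Snai2, a repressor that sets basal identity, was 79.8 and 73.9 against 0.192 and 0 RPKM (6.16), and Trp63, the master regulator of basal epithelium, was 8.46 and 11.2 against 0.2 and 0.0518 RPKM (3.26). The matrix genes Vcan and Sparc were 139 and 135 against 0.321 and 0.931 RPKM and 170.0 and 162 against 0.706 and 2.45 RPKM. Late contractile genes were scarcer: Mylk, a myosin kinase, and Myh11, the smooth muscle myosin, were 5.66 and 4.93 and 0.687 and 0.63 RPKM in fMaSC but 155 and 83.2 and 70.5 and 41.5 in adult basal cells. Myh11 was not called against mature luminal cells (adjusted p = 0.141 by limma), nor were the integrin genes Itga6, Itgb1 and Itgb4, whose log2 changes were 0.49, 0.24 and 0.36.

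Mesenchymal genes went the same way, and Snai2 and Sparc are on both lists. Of 12 tested members 9 were higher and none lower (7 and 0 after quantile normalization). Vim, the mesenchymal filament protein, was 352 and 360.5 RPKM in fMaSC and 2.77 and 7.32 RPKM in mature luminal cells, and the gelatinase Mmp2 was 68.5 and 68.5 against 0.229 and 0.824 RPKM (5.54). Adult basal cells had 349.7 and 307 RPKM of Vim and 75.8 and 63.6 of Mmp2, near the fetal levels. The transition factors Snai1 and Zeb1 were not called, at 3.65 and 4.08 against 7.04 and 1.98 RPKM and 1.12 and 0.749 against 0.304 and 1.06 RPKM.

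Extracellular matrix genes were widely higher in fMaSC. Of 27 tested collagens 23 were higher and 2 lower (20 and 2 after quantile normalization), with a median of 2.76. The 3 chains of collagen IX, a cartilage collagen, were Col9a1 at 35 and 32.9 against 0 and 0.0603 RPKM, Col9a2 at 22.5 and 23.5 against 0 and 0 RPKM and Col9a3 at 39.4 and 42.1 against 0 and 0.108 RPKM. Col4a1, the basement membrane collagen, was 59.8 and 59.8 RPKM in fMaSC and 0.551 and 0.946 RPKM in mature luminal cells (5.13 ± 0.23 (SE), adjusted p = 9.0e-06 by limma). The 2 lower collagens were Col8a1, which had 8.57 and 16.3 RPKM in mature luminal cells and was listed at 0 in fMaSC, and Col6a3 at 1.85 and 1.99 against 15.2 and 10.3 RPKM. Of 9 tested genes of cartilage-type matrix and its factors 8 were higher (8 after quantile normalization), Lect1 and the collagen IX chains included, and the exception was Sox9, the master factor of cartilage (-3.06).

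Laminins and integrins differed by chain. Of 35 tested basement membrane genes 19 were higher and 8 lower (16 and 9 after quantile normalization), against 41.7% and 14.7% of all genes. Lama4 and Lamb1 were higher, at 82.8 and 87.8 against 0 and 0.244 RPKM (6.27) and 45.6 and 46.5 against 0.122 and 0.322 RPKM (5.27). Lama5, a chain of epithelial laminins, was lower, at 181 and 178 against 515 and 637 RPKM (-1.67). Itga9 and Itga8 were 15.1 and 15.2 against 0 and 0.0836 RPKM and 10.6 and 10.6 against 0.0401 and 0.0529 RPKM, and Itgb6, the epithelial integrin that activates TGF-beta, was 2.49 and 4.02 against 45.4 and 51.3 RPKM (-3.56). Dst and Plec, linkers of filaments to hemidesmosomes, were lower in fMaSC, at 1.01 and 1.15 against 17.1 and 23.8 RPKM and 76.1 and 86.7 against 283 and 251 RPKM.

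Genes of the embryonic mammary bud were mostly below the filter. Of 27 listed genes only 10 passed the filter, and of these 7 were higher and 1 lower (7 and 2 after quantile normalization). Pthlh, the parathyroid hormone-related signal of the bud epithelium, was 51.4 and 51.6 RPKM in fMaSC and 2.81 and 0.818 RPKM in mature luminal cells (4.32 ± 0.51 (SE), adjusted p = 3.6e-04 by limma). Sostdc1, a Wnt and BMP antagonist, was 30.5 and 29.6 against 0.109 and 0.156 RPKM (4.78), and Edar, the ectodysplasin receptor, was 6.55 and 7.67 RPKM in fMaSC and listed at 0 in mature luminal cells. Msx2, a homeobox gene of bud and skin, was lower in fMaSC, at 6.87 and 4.91 against 268 and 161 RPKM (-4.93). Lef1, a Wnt effector required for the bud, was below the filter at 0.236 and 0.187 against 0 and 0 RPKM.

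Transcription factor families gave the following counts, beside 41.7% higher and 14.7% lower among all genes. Of 19 Sox genes 9 were below the filter, and of the 10 tested 8 were higher and 1 lower (8 and 1 after quantile normalization). Sox11, a factor of fetal tissues, was 62.1 and 59.1 RPKM in fMaSC and 0.0604 and 0.0156 RPKM in mature luminal cells (5.89 ± 0.20 (SE), adjusted p = 7.2e-06 by limma), and no adult library exceeded 0.4 RPKM. It therefore passed the filter only through fMaSC, and the count of higher Sox genes partly follows from the filter. Sox21 and Sox6 were 6.78 and 7.55 against 0.103 and 0.0267 RPKM and 5.57 and 7.1 against 0.0701 and 0.121 RPKM. Of 15 tested Fox genes 4 were higher and 3 lower (3 and 4 after quantile normalization, and 1 lower without fMaSC library 1, fMaSC library 2 or mature luminal library 2), among them the mitotic factor Foxm1 at 7.25 and 6.93 against 0.305 and 0.228 RPKM and Foxq1 at 0.84 and 0.745 against 4.47 and 4.7 RPKM. Of 39 Hox genes only Hoxb2 and Hoxb3 passed the filter; neither was called as deposited (3.84 and 3.98 against 2.29 and 1.91 RPKM and 0.868 and 0.68 against 0.685 and 1.69 RPKM), and Hoxb3 was called lower after quantile normalization (-0.88).

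Wnt pathway genes were mostly higher in fMaSC, apart from a few ligands. Of 33 tested members 19 were higher, 4 lower and 10 not called (17 higher and 7 lower after quantile normalization), against 41.7% higher and 14.7% lower among all genes. The 4 lower ones were all ligands. Wnt7b was 0.243 and 0.324 RPKM in fMaSC and 35.4 and 29.4 RPKM in mature luminal cells (-4.70 ± 0.39 (SE), adjusted p = 7.9e-05 by limma), Wnt5a was 9.12 and 9.35 against 47.2 and 55.8 RPKM (-2.35), and Wnt11 was 0.778 and 0.708 against 8.67 and 4.3 RPKM (-2.04). The ligands Wnt6 and Wnt10a, known from embryonic ectoderm, were 2.43 and 2.36 and 1.95 and 1.45 RPKM in fMaSC and listed at 0 in mature luminal cells. Lgr5 and Lgr4, receptors for R-spondins, were 67.3 and 73.3 against 0 and 0.525 RPKM (5.85) and 121 and 163 against 7.21 and 7.52 RPKM (4.08). The secreted antagonists Sfrp1 and Sfrp2 were 105 and 110.2 against 0.323 and 0.0942 RPKM (6.50) and 17 and 18.3 against 0.149 and 0.725 RPKM (3.73). Axin2, the usual readout of the pathway, was listed at 0 in all 4 libraries and at 8.18 and 4.68 RPKM in basal cells.

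EGF family ligands also differed by member. Over all genes 41.7% were higher and 14.7% lower. Of 12 tested members 5 were higher and 4 lower (4 and 4 after quantile normalization, and 3 higher without either fMaSC library). The lower ones were Areg, Epgn at 33 and 29.5 against 838 and 827 RPKM (-4.69), Btc at 1.66 and 0.766 against 45.9 and 33.6 RPKM (-4.21) and the neuregulin Nrg4 at 0.0305 and 0.212 against 7.83 and 6.37 RPKM (-2.85). The higher ones were led by another neuregulin, Nrg1, at 16.6 and 15.2 against 0 and 0.211 RPKM (3.94), and by Tgfa at 42.4 and 53.1 against 4.59 and 6.04 RPKM (2.95) and Hbegf at 20.7 and 18.8 against 4.17 and 3.74 RPKM (2.06). The receptor gene Egfr was not called, at 1.63 and 1.94 against 0.166 and 0.649 RPKM (1.00, adjusted p = 0.0547 by limma).

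FGF, IGF, Notch and BMP genes gave different shares beside the 41.7% of all genes that were higher. In the FGF list 11 of 15 tested members were higher and 1 lower (8 and 1 after quantile normalization, and 2 lower without mature luminal library 1). Etv5, an ETS factor induced by FGF signals, was 69.2 and 73.3 RPKM in fMaSC and 0.623 and 0.87 RPKM in mature luminal cells (5.37 ± 0.26 (SE), adjusted p = 1.1e-05 by limma), and the feedback inhibitors Dusp6 and Spry4 were 389 and 412 against 38.6 and 36.8 RPKM and 17.8 and 19.3 against 0.815 and 1.83 RPKM. The receptor Fgfr2 was 30.6 and 32.6 RPKM in fMaSC and 12.9 and 93.2 RPKM in mature luminal cells. The mature luminal libraries were far apart, and it was not called over both. In the IGF list 10 of 13 were higher and 1 lower (7 and 2 after quantile normalization, and 0 lower without fMaSC library 2 or mature luminal library 2): the receptor Igf1r was 11.8 and 11.9 against 0.635 and 0.769 RPKM (2.92) and the binding protein Igfbp3 57.6 and 60.9 against 0.411 and 1.11 RPKM (5.12). In the Notch list 8 of 12 were higher and 1 lower (7 and 3 after quantile normalization, and 0 lower without any 1 of the 4 libraries). The ligands Dll1 and Jag2 were 18.8 and 19.8 against 0.191 and 0.223 RPKM and 9.4 and 8.11 against 0 and 0.131 RPKM, and the ligand Dll4 was 0.373 and 0.186 against 3 and 2.9 RPKM (-1.63). In the BMP, TGF-beta and activin list 8 of 23 were higher and 2 lower, but 7 and 7 after quantile normalization, and 1 was lower without fMaSC library 2 or mature luminal library 1. Bmp7 was 69.9 and 76.3 against 0.118 and 0.158 RPKM (6.02) and the activin antagonist Fst 38 and 41.7 against 0.566 and 1.22 RPKM (4.45), whereas Inhbb, an activin subunit, was 19.6 and 18.6 against 215 and 336 RPKM (-3.75).

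**Figure D4:**
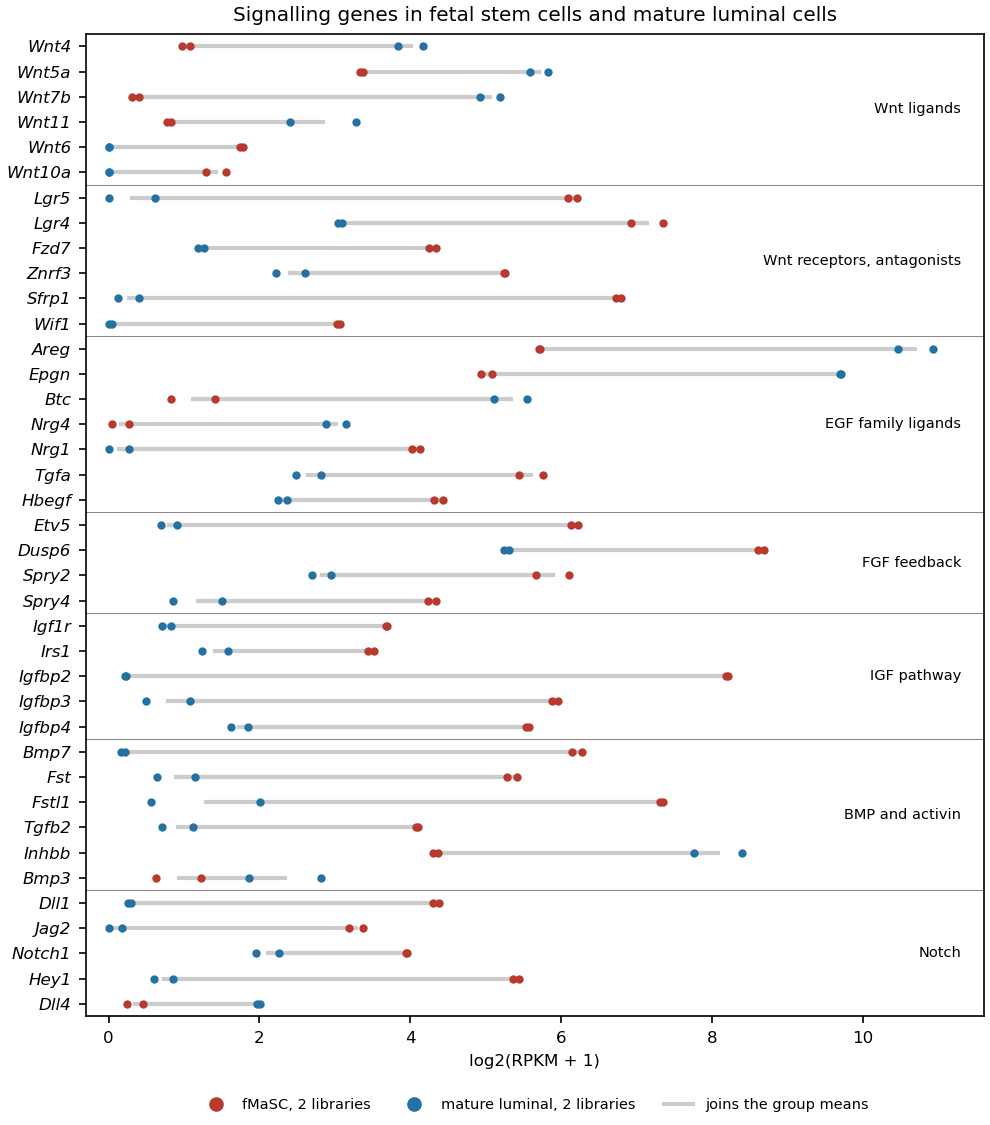
Level as log2(RPKM + 1) of 39 signalling genes in the 2 fMaSC libraries (red) and the 2 mature luminal libraries (blue), grouped by pathway, with grey lines between the group means. Wnt7b, Areg, Epgn, Btc and Inhbb lie to the right in mature luminal cells, while Lgr5, Sfrp1, Etv5, Igfbp2 and Bmp7 lie to the right in fMaSC.

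Antigen presentation and interferon-induced genes were lower in fMaSC. Of 37 tested MHC and antigen-processing genes 20 were lower and 1 higher (30 and 0 after quantile normalization, and 0 higher without any 1 of the 4 libraries), with a median of -1.76. H2-K1, a class I heavy chain, was 50.0 and 54.6 RPKM in fMaSC and 1444 and 1384 RPKM in mature luminal cells (-4.73 ± 0.20 (SE), adjusted p = 8.4e-06 by limma). B2m, the light chain shared by class I molecules, was 156 and 144 against 1493 and 1493 RPKM (-3.31), and Tap2, a subunit of the peptide transporter, was 1.75 and 1.38 against 34.9 and 30.0 RPKM (-3.70). Class I genes have near-identical copies, and values of single H2 genes are uncertain. Of 52 interferon-induced genes 32 were lower and 6 higher (37 and 3 after quantile normalization), with a median of -1.07. Without either fMaSC library 19 were lower and 3 higher, and without mature luminal library 2 also 3 were higher. Usp18, an interferon-induced protease, was 0.534 and 0.188 against 25 and 18.6 RPKM (-4.06), and Gbp2, a guanylate-binding protein, was 1 and 1.18 against 24.9 and 25.8 RPKM (-3.66). Ifitm1 and Ifitm3, membrane proteins that restrict viral entry, were higher in fMaSC, at 2.61 and 2.45 against 0 and 0.092 RPKM and 1009 and 916 against 428 and 547 RPKM.

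Chemokines, interleukins and their receptors had 22 of 84 higher and 25 lower (15 and 36 after quantile normalization), against 41.7% and 14.7% of all genes. Cxcl17, a mucosal chemokine, was 0 and 0.472 against 78.3 and 65.7 RPKM (-5.91), and Il18r1, a receptor chain for interleukin-18, was 0 and 0 against 26.5 and 31.7 RPKM (-4.91). Il17b was 35.5 and 34.8 RPKM in fMaSC and listed at 0 in mature luminal cells, and the monocyte chemokine Ccl2 was 54.2 and 54.3 against 0.881 and 8.75 RPKM (3.69). Among 23 secreted defence genes 9 were lower and 4 higher (11 and 4 after quantile normalization). Lcn2, the iron-scavenging protein lipocalin-2, was among the 10 most abundant fMaSC genes at 3159.7 and 2945 RPKM in fMaSC and 187 and 298 RPKM in mature luminal cells (3.69 ± 0.37 (SE), adjusted p = 1.8e-04 by limma). Wfdc2, a protease inhibitor, and Clu, the chaperone clusterin, were lower in fMaSC at 77.3 and 67.2 against 4972 and 5553 RPKM and 109 and 114 against 2484 and 1929 RPKM.

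Of 23 tested glycolysis genes 18 were higher and 3 lower (17 and 3 after quantile normalization, and 1 lower without either fMaSC library), with a median of 2.33. Ldha, which makes lactate, was 3889 and 4014 RPKM in fMaSC and 950.3 and 646 RPKM in mature luminal cells (2.33 ± 0.25 (SE), adjusted p = 2.5e-04 by limma), and Ldhb, the other subunit of that enzyme, was 80.6 and 66.8 against 0.185 and 0.166 RPKM (5.98). Hk1, a hexokinase, and Pfkfb3, which makes the activator of phosphofructokinase, were lower in fMaSC at 8.39 and 8.9 against 32 and 34.7 RPKM and 2.81 and 2.84 against 21 and 19.5 RPKM. Gapdh was listed at 65.7 and 65.2 against 0.309 and 0.473 RPKM, far below Ldha in mature luminal cells. It has many near-identical pseudogene copies, so its value is uncertain. Of 91 respiratory chain and ATP synthase genes 61 were higher and none lower (47 and 3 after quantile normalization), with a median of 1.06. Cyc1, which encodes cytochrome c1, was 137 and 138 against 42.9 and 24.3 RPKM (2.06).

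Of 80 cytosolic ribosomal protein genes only 18 were higher and none lower (19 and 1 after quantile normalization, with 8 higher under both scalings), with a median of 0.28, below the 0.53 of all tested genes. Without fMaSC library 1 only 4 were higher, and 9 without fMaSC library 2 or without mature luminal library 1. Rplp0, the most abundant fMaSC gene, was 8272 and 7628 against 7437 and 5517 RPKM and not called as deposited (0.31), but was called at 2.25 after quantile normalization. That scaling gives genes of equal rank the same value. The most abundant mature luminal gene was Malat1, at 6.35% and 11.5% of the summed RPKM. How far this sets the 2.25 was not tested. Genes for making ribosomes were higher more often, at 17 of 24 with 1 lower (16 and 2 after quantile normalization, and 0 lower without fMaSC library 1, fMaSC library 2 or mature luminal library 1). Npm1, the nucleolar chaperone nucleophosmin, was 3374 and 3297 against 872 and 693 RPKM (2.10), and Dkc1, the pseudouridine synthase dyskerin, was 41 and 42 against 4.63 and 4.49 RPKM (2.94). Of 18 chaperones 17 were higher and none lower (15 and 1 after quantile normalization), among them the mitochondrial Hspd1 at 811 and 787 against 116 and 86.5 RPKM (2.98). Stress genes had 8 of 19 higher and 5 lower (7 and 6 after quantile normalization), against 41.7% and 14.7% of all genes. Trib3 was higher and Gadd45a lower in fMaSC, at 79 and 77.6 against 11.4 and 6.58 RPKM and 53.7 and 49 against 509.9 and 518 RPKM.

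Of 27 fatty acid and cholesterol genes 18 were higher and 2 lower (15 and 2 after quantile normalization, and 0 lower without any 1 of the 4 libraries). The desaturases Fads1 and Fads2 were 75.8 and 79.9 against 1.37 and 2.15 RPKM and 8.51 and 9.44 against 0 and 0 RPKM. Rdh10, which oxidises retinol, was 11.2 and 10.0 against 69.4 and 82.8 RPKM (-2.73). Srd5a1, which reduces testosterone to dihydrotestosterone, was 37.9 and 38.7 against 0.321 and 0.375 RPKM (4.87). Over all genes 41.7% were higher and 14.7% lower. Solute carriers had 71 of 212 higher and 39 lower as deposited but 44 higher and 61 lower after quantile normalization, and 47 and 46 were higher without fMaSC library 1 and without fMaSC library 2. The sodium, potassium and chloride cotransporter Slc12a2 was 29.4 and 33.4 RPKM in fMaSC and 1407 and 1758 RPKM in mature luminal cells (-5.60), and the iodide transporter Slc5a5 was 0.0524 and 0.12 against 26 and 21 RPKM (-4.49). The zinc and manganese importer Slc39a8 was 38.6 and 41.2 against 0 and 0.139 RPKM (5.26).

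Axon guidance and neural adhesion genes were higher in 24 of 46 cases and lower in 3 (20 and 6 after quantile normalization). Over all genes 41.7% were higher and 14.7% lower. Sema3b, a secreted semaphorin, was 28.6 and 28.3 RPKM in fMaSC and 0.042 and 0.0832 RPKM in mature luminal cells (4.79), and the receptor Robo2 was 12 and 13.9 against 0 and 0.1 RPKM (3.73). The lower genes were Nrxn3, a neurexin, at 0.0188 and 0 against 6.34 and 6.43 RPKM (-2.87), and the membrane semaphorins Sema4f and Sema4b at 0.0424 and 0.0743 against 3.07 and 3.58 RPKM (-2.03) and 0.832 and 1.53 against 2.38 and 2.33 RPKM (-0.64). Among 11 tested neural crest and glial genes 5 were higher and 1 lower (5 and 3 after quantile normalization), against the same shares of all genes. Apart from Sox10 they included Mia, a secreted protein of cartilage and melanoma, at 42.7 and 37.6 against 0.939 and 0.949 RPKM, and Fabp7, at 13 and 13.8 RPKM in fMaSC and listed at 0 in every adult library.

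Immediate early genes, which respond to handling as well as to growth signals, were higher in 11 of 20 and lower in 4 (6 and 4 after quantile normalization, and 6 higher without fMaSC library 1, fMaSC library 2 or mature luminal library 1). The shares of all genes were 41.7% and 14.7%, or 26.7% and 25.9% after quantile normalization, so the list as a whole stood near them. Egr2 and Myc were higher, at 15.6 and 19.8 against 0.239 and 0.346 RPKM and 20.4 and 20.6 against 2.27 and 1.47 RPKM, and Klf4 and Jund lower, at 22.1 and 19.5 against 211 and 177 RPKM and 2.72 and 2.55 against 15.1 and 18.1 RPKM. Fos, the best-known member, was not called, at 231 and 241 against 337 and 278 RPKM.

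Potassium channels had 6 of 17 higher and 3 lower (6 and 5 after quantile normalization), against 41.7% and 14.7% of all genes. Kcnn4, a calcium-activated channel, was 64.2 and 61.7 against 1.3 and 1.57 RPKM. Kcnj11, a subunit of the ATP-sensitive channel, was 0.0281 and 0.0293 against 3.44 and 2.7 RPKM. Of 19 cytochrome P450 genes 7 were higher and 4 lower, but 2 and 5 after quantile normalization, and 2 were higher without either fMaSC library and 3 without either mature luminal library. Cyp3a57, which has close paralogs, had 161 and 145 RPKM in mature luminal cells and was listed at 0 in fMaSC. Of 20 cilium genes 5 were higher and 2 lower, but 3 and 7 after quantile normalization. Leaving out any 1 of the 4 libraries left 2 (without fMaSC library 1) or 3 higher and none lower.

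Markers of other cell types differed between the groups as well, and their part in the results above was not tested. Their counts stand beside 41.7% higher and 14.7% lower among all genes. Of 10 tested fibroblast markers 8 were higher in fMaSC and none lower (7 and 0 after quantile normalization), and their summed level was 124 and 147 RPKM against 26.6 and 10.2. The collagen genes Col1a1 and Col3a1 and the receptor Pdgfra were 8.58 and 9.79 against 0.0553 and 0.0845 RPKM, 18.6 and 24 against 0.0644 and 0.483 RPKM and 9.55 and 7.84 against 1.44 and 0.468 RPKM. The collagen and mesenchymal counts above stand beside these values. Of 10 fat cell markers 7 were higher and 1 lower (6 and 1 after quantile normalization, and 0 lower without either fMaSC library), with sums of 259 and 231 against 19.2 and 66.9 RPKM. Most of the fetal sum was Fabp4, a fatty acid carrier that endothelial cells also express, and Car3, a carbonic anhydrase, at 119 and 102 against 6.14 and 48.4 RPKM and 86.4 and 78.9 against 0.276 and 0.538 RPKM. The fat hormone Adipoq was 5.04 and 4.87 RPKM in fMaSC and listed at 0 in mature luminal cells. The globins Hbb-b2 and Hba-a2, which have near-identical copies, were the only red cell markers of 10 to pass the filter, at 65.3 and 64.3 and 185 and 174 RPKM in fMaSC and 0 and 0 and 8.75 and 2.67 in mature luminal cells. Of 8 melanocyte markers 5 were below the filter. The 3 that passed, Dct, Pmel and Tyr, were higher in fMaSC, with Dct at 17.9 and 22.9 RPKM and at 0 in every adult library. All 8 summed to 37.1 and 44.3 RPKM in fMaSC and 0.624 and 1.48 in mature luminal cells. Markers that pass the filter only through fMaSC can only be called higher there, so this count is no separate evidence.

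Endothelial markers had 2 of 7 higher and 1 lower (0 and 1 after quantile normalization, and 0 higher without either fMaSC library and 1 without mature luminal library 1). These counts were no higher than the 41.7% and 14.7% of all genes. Vwf, the von Willebrand factor, was lower in fMaSC at 0.55 and 0 against 43.7 and 56.9 RPKM, while the defining marker Cdh5 was 0.704 and 0.237 against 0 and 1.44 RPKM. Of 17 immune markers only 4 passed the filter, 2 of them lower in fMaSC, and the pan-leukocyte gene Ptprc was 0 and 0 against 0 and 0.0903 RPKM. Of 6 tested Schwann cell markers 4 were higher and 1 lower (3 and 2 after quantile normalization), with sums of 89 and 97.8 against 43.5 and 46.4 RPKM. Of 10 skeletal muscle markers none passed, and of 3 tested skin keratinocyte markers 2 were lower (1 without fMaSC library 1, fMaSC library 2 or mature luminal library 1), among them Sprr1a at 0.991 and 1.1 against 30.1 and 16.7 RPKM.

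**Figure D5:**
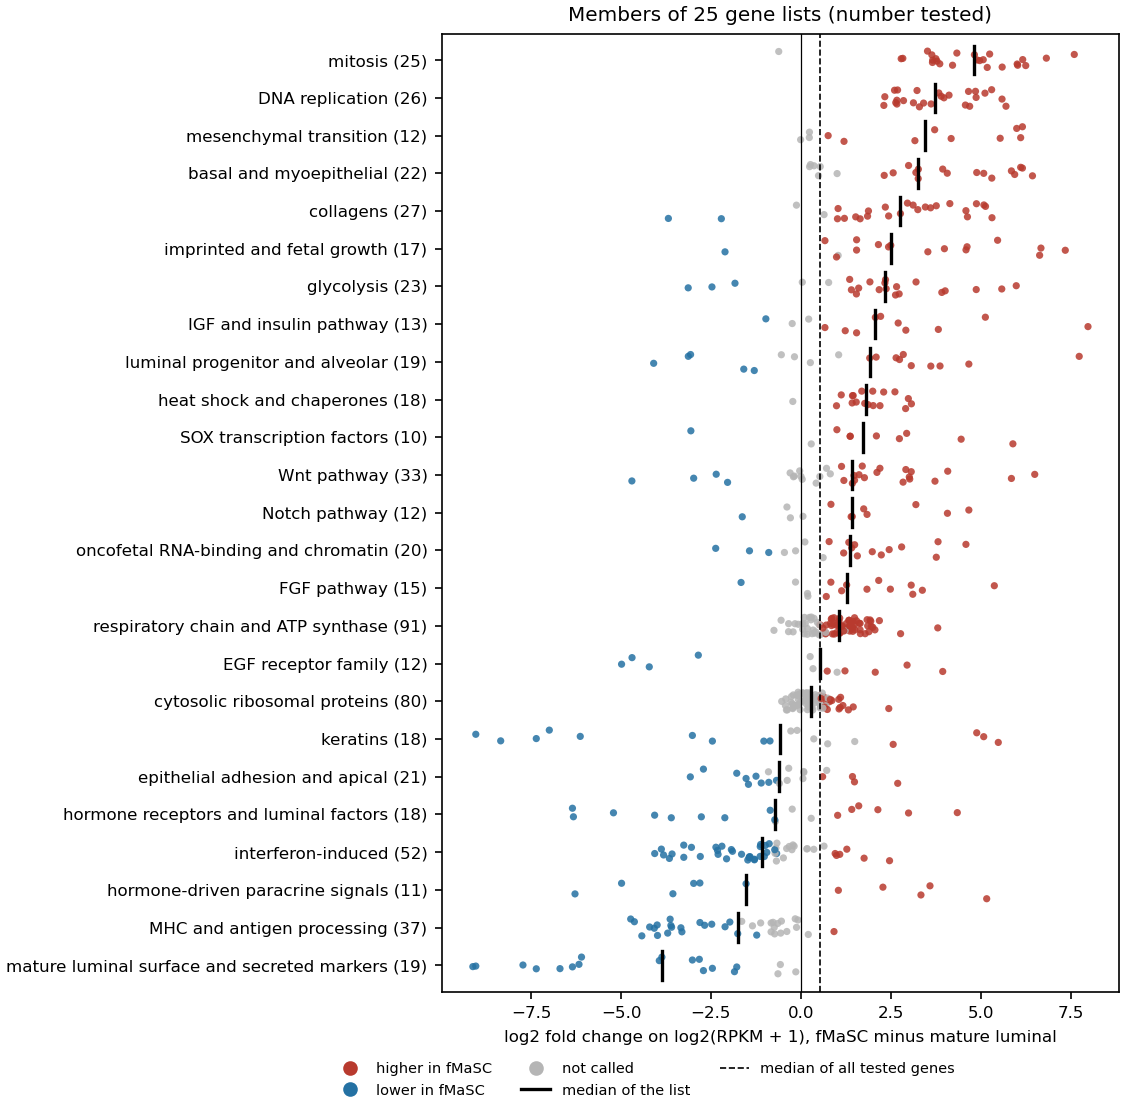
Log2 fold change (fMaSC minus mature luminal, x axis) of every tested member of 25 gene lists, coloured by limma call, with the median of each list (bar) and of all tested genes (dashed line, 0.53). Among the lists shown, mitosis and DNA replication have the highest medians, and mature luminal surface markers and MHC genes the lowest. Not shown are, among others, the cartilage-type matrix list, with a median of 4.17, and the red cell list, with a median of 5.48 over 2 tested genes.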

How the data were processed

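RPKM values per gene were computed and deposited by the authors. FastQC, HISAT2 2.0.5 and StringTie 1.3.1c are named with build mm9, per the submitters' processing notes, and cDNA was made by an unstranded full-length protocol from about 2000 cells, per the labels' protocols. RPKM keeps no read total, so depth, counting error and intervals are unknown. The most common ratio among genes below 0.3 RPKM put library 2 at 0.941 of the depth of library 1 in fMaSC and at 1.29 in mature luminal cells. Only 29 of 1371 such genes had that ratio in fMaSC and 52 of 1067 in mature luminal cells, so these relative depths are rough.

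Genes with at least 1 RPKM in at least 2 of the 8 normal libraries were fitted as log2(RPKM + 1) with limma 3.58.1 (intensity trend) in R 4.3.3, over all 8 libraries, with Benjamini-Hochberg adjustment over the 12553 genes. The fit was also run on simulated data with far fewer changed genes, the same spread in every group and no shift in scaling. That run therefore cannot show how accurate the calls are here. Python 3.11.15, pandas 2.3.3 and matplotlib 3.10.9 were used for the rest. Promoter windows came from RefSeq (GRCm38.p6), a later build than the files'.

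The 49 theme lists and 9 cell type lists were chosen with earlier results of these data known. Named were the 15 largest called changes each way (predicted genes left out), up to 4 called members per list and direction, 15 population markers and the 10 most abundant genes of each group. Anln, Axin2, B2m, Birc5, Cdc20, Cdh5, Cldn3, Cldn7, Col1a1, Egfr, Ezh2, Fabp4, Fga, Fgfr2, Fos, Greb1, Hist1h1b, Hoxb2, Hoxb3, Ifitm3, Igf2, Itga6, Itga8, Itga9, Itgb1, Itgb4, Lef1, Lin28a, Lin28b, Muc1, Myb, Myh11, Mylk, Ndn, Neat1, Nusap1, Pdgfra, Prc1, Ptprc, Rpl37, Snai1, Tap2, Tbx3, Tet1, Tnfsf11, Wap, Wnt10a and Zeb1 were chosen after their values were seen. Alternatives were 2 other pseudocounts, 2 other filters, 3 scalings, a fit on 4 libraries, no trend, a replicate block, averaged fMaSC libraries, each library left out, and, added after seeing the data, calls shared by 2 scalings. Tumour libraries were not analysed here. A few results on single genes are not reported here.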

Additional observations from a re-analysis of the deposited data

How the results depend on the processing

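The main counts of 5231 higher and 1849 lower genes depended most on scaling: quantile normalization gave 3346 and 3246, median-of-ratios factors gave 3633 and 2760, and calls shared with quantile normalization, an alternative chosen after seeing the data, were 3331 and 1844. The cause of the scaling difference was not tested. Leaving out each library in turn gave 3596 to 4193 higher and 1186 to 1447 lower genes, and averaging the fMaSC libraries into 1 sample gave 3575 and 1190. Where 1 library remained in a group, it was assumed to vary like the other groups, and fewer samples enter these fits. With the replicate block the counts were 5305 and 1883. The groups share replicate numbers only, since fetal and adult cells come from different animals, and the deviations of same-numbered libraries had a correlation of 0.0082 over genes. The remaining alternatives, which were other pseudocounts, filters, the fit on 4 libraries, no trend and rescaling without Malat1, gave 4209 to 6319 higher and 1497 to 2421 lower genes. The gene Fgfr2 was 1.23 higher in fMaSC without mature luminal library 2 and -1.53, called lower, without mature luminal library 1. Among the named genes, Ccl2, Dll4, Fabp4, Foxq1, Ghr, H3f3b, Hbegf, Hk1, Ifitm3, Neat1, Pfkfb3, Sema4b, Tet2 and Wnt11 were no longer called when at least 1 library was left out, and each kept its direction. Depth is unknown, so differences among genes near 0 RPKM cannot be set against counting error.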
